A study of Drosophila melanogaster with 9 samples.

Results

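Both heterochromatin knockdowns of the study were pooled here, namely the 3 libraries of S2 cells treated with RNAi against HP1a and the 3 treated with RNAi against Su(var)3-9. These 6 knockdown libraries were set against the 3 control libraries, and so all 9 libraries of the series were used. S2 is a cell line derived from Drosophila melanogaster embryos, and every library was total RNA from this line. Each culture received 1 µg of double-stranded RNA (dsRNA) and was kept for 3 days. The dsRNA matched HP1a or Su(var)3-9 in the knockdowns and GFP, which the fly genome does not carry, in the control. All groups therefore share the transfection and the presence of dsRNA, and all come from a single cell line. Genes were kept where the identifier begins with CG, the prefix of annotated fly genes that mostly code for proteins. This left 14088 of the 15168 genes in the table, and 8072 of them had a mean of at least 1 over the 9 libraries and were tested. Values are rescaled TPM, that is, transcript abundances corrected for transcript length and brought to a total of 1000000 over the CG genes of each library. The TPM keep no record of sequencing depth, so depth is unknown and counting intervals are left out. The labels do not say that the replicates were grown apart from each other, so the p-values measure only the spread between these libraries.

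Heterochromatin is the compact, repeat-rich chromatin found around centromeres. Su(var)3-9 is a methyltransferase that places methyl groups on lysine 9 of histone H3, and HP1a reads that mark by binding to it. Genes brought near heterochromatin are often silenced, whereas some genes that normally lie within it have been reported to need HP1a for their full expression. The comparison asks which genes moved the same way after RNAi against the writer and against the reader of the mark. Some of the genes described below encode chaperones, which hold or refold other proteins, or enzymes that deal with reactive and foreign compounds. Those enzymes were grouped after their values were seen. Chaperones and such enzymes are familiar as stress responders in fly cells, and whether stress played a part here was not tested.

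Over the tested genes the correlations of log2 values ran from 0.947 to 0.981 over the 36 pairs of libraries. Replicates were not always closer than libraries of different groups. Su(var)3-9 RNAi 3 correlated at 0.959 and 0.965 with its own group, and control 3 at 0.960 and 0.962 with the other controls. HP1a RNAi 3 and Su(var)3-9 RNAi 1 correlated at 0.980. Su(var)3-9 RNAi 3 had 8891 CG genes above 0, against 9197 to 9653 in the other libraries. CG genes took 15.3, 10.9 and 15.1% of all TPM in the control, 10.4, 10.2 and 11.1% after HP1a RNAi and 9.70, 10.5 and 14.2% after Su(var)3-9 RNAi. The means were 13.8% ± 2.52 in the control (SD, n = 3) and 11.03% ± 1.64 in the knockdowns (SD, n = 6), a difference of -2.76 percentage points with p = 0.0714 in a two-sided exact permutation test whose smallest p is 0.0238. The part of this share in the results below was not tested, and counts without the rescaling are given beside the main ones. Of 14 markers of hemocytes, the blood cells that S2 cells resemble, 12 passed the filter, among them the receptors crq and eater and the transcription factor srp. The summed level of the list was 1031 to 1131 in the control, 866 to 978 after HP1a RNAi and 929 to 1029 after Su(var)3-9 RNAi. Most of this was Fer1HCH, and without it the mean sum was 414 in the control, 468 after HP1a RNAi and 447 after Su(var)3-9 RNAi. Of 19 entries for markers of other cell types only 5 passed the filter, with summed levels of all entries of 56.8 to 68.4, 93.6 to 105 and 61.3 to 73.6 in the same order, mostly from the germline gene aub. The fat body gene Lsp2 was listed at 0 in all 9 libraries.

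The targeted genes went against the labels at the RNA level. The HP1a gene (CG8409) stood at 596, 495 and 526 rescaled TPM in the control, 3789, 2796 and 2849 in the libraries labelled HP1a RNAi and 498, 534 and 510.3 in those labelled Su(var)3-9 RNAi. The Su(var)3-9 gene (CG6476), whose identifier also covers eIF2gamma, stood at 240.3, 219 and 240.2 in the control, 252, 261 and 263 in the HP1a RNAi libraries and 3923, 2483 and 3251 in the Su(var)3-9 RNAi libraries. Each target was therefore higher, not lower, in its own knockdown, by 2.53 (SE 0.13) and 3.76 (SE 0.14) on the log2 scale. The annotated transcripts of the HP1a gene parted, since the mean of CG8409-RA was 345 in the control and 40.2 after HP1a RNAi, while that of CG8409-RB was 194 and 3105. Because each target rose in only its own 3 libraries, neither passed in the pooled comparison, where the HP1a gene differed by 1.23 (SE 0.68, limma adjusted p = 0.394) and Su(var)3-9 by 1.96 (SE 0.94, adjusted p = 0.338). For CG6476 the rise was in CG6476-RA, whose mean was 19.8 in the control and 3009 after Su(var)3-9 RNAi, while CG6476-RB was at 213 and 209.9. The values of CG6476 are sums over its transcripts, so the difference of 3.76 understates the change in CG6476-RA. The transcript names do not say which of them is Su(var)3-9 and which eIF2gamma. Whether reads from the transfected dsRNA entered these values was not tested. The study checked both knockdowns by immunoblot, which was not analysed here, and directions below describe the libraries as labelled.

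Few genes passed in the pooled comparison, and more of these were lower than higher in the knockdowns. The count of genes that passed is not a count of the genes that changed. Of the 8072 tested genes, 71 (0.88%) passed at a limma adjusted p under 0.05 when the 6 knockdown libraries were compared with the 3 control libraries. Of these, 57 genes (0.706% of those tested) were lower in the knockdowns and 14 (0.173%) were higher. The lower genes moved further: their differences ran from -3.17 to -0.37 with a median of -0.98, on the scale of log2(rescaled TPM + 1), and 27 of them passed 1 log2 unit. The higher genes ran from 0.44 to 1.10 with a median of 0.58, and 3 of them passed 1 log2 unit. In all 71 genes the control and knockdown libraries did not overlap, against 5.23% of tested genes with all 6 knockdown libraries below all 3 controls and 3.63% with all 6 above. The median over all tested genes was -0.02, with 4257 genes below 0 and 3815 above. An unadjusted p under 0.05 was reached by 1293 genes, 745 of them lower and 548 higher. Differences of low genes are understated on this scale.

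**Figure D1:**
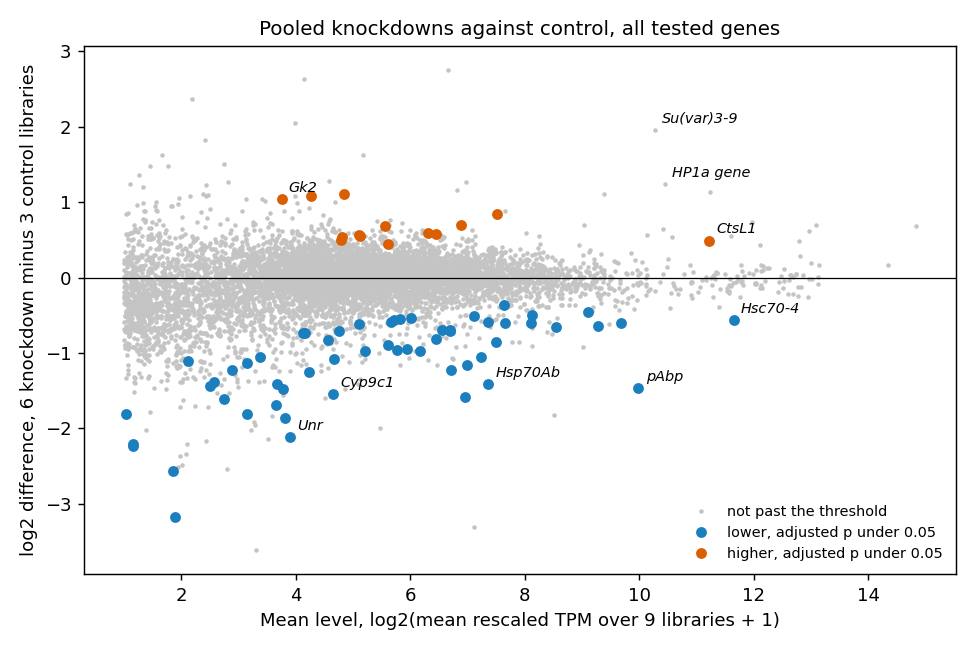
Each point is a tested gene, placed by log2(mean rescaled TPM over the 9 libraries + 1) on the horizontal axis and by the log2 difference between the 6 knockdown and the 3 control libraries on the vertical axis. Coloured points mark the 57 lower and the 14 higher genes that passed, and the HP1a and Su(var)3-9 genes lie high on the plot without passing.

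The pooled comparison counts a difference between the knockdowns as spread, so it favours genes that are alike in both, and the values of each knockdown are given for these 71 genes as a description. In the lower genes the median difference from the control was -1.05 after HP1a RNAi and -0.91 after Su(var)3-9 RNAi, and in the higher genes it was 0.59 and 0.57. These comparisons share the same 3 control libraries. With each knockdown set against the control on its own, in the fit with 3 groups, 40 of the 71 genes passed after HP1a RNAi (0.805% of all tested genes did) and 23 after Su(var)3-9 RNAi (0.434% of all tested genes). Of these, 21 passed in both, while 29 of the 71 passed in neither alone. The largest difference between the knockdowns within the 71 genes was 0.76 log2 units, in CG12560. The genes that passed had a median length of 1468 bases and a median control level of 53.9 rescaled TPM, against 1824.5 bases and 30.2 over all tested genes. In later annotation 28 of the 71 share exon bases with another gene, 23 of them on the opposite strand, and whether strand was used in counting is not given in the sources used here. Among the genes named below, Hsp70Ab, Hsp68, Hsp27, Cyp9c1, Fer1HCH, CG14636, rtp, Ada1-1, Sirup, CG12107, CG17264, CG8478, MagR, Kmn1 and RabX6 overlap a gene on the opposite strand, and CG18135, CtsL1, CG9775 and CG15547 a gene on the same strand.

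The count of genes depended on the scaling and on single libraries. With TPM as deposited, 381 genes were lower and 1 was higher, and the median over all genes moved to -0.23. That set held all 57 lower genes and none of the 14 higher genes, whose differences shrank to between 0.11 and 0.62, with a median of 0.25. The count fell to 23 without control 2, to 31 without HP1a RNAi 3, to 32 without control 3 or without Su(var)3-9 RNAi 2, to 35 without HP1a RNAi 2 and to 36 without HP1a RNAi 1, and it rose to 116 without Su(var)3-9 RNAi 3. A core of 18 of the 71 genes passed whichever library was left out. It includes CG41138, CG4783 and Nost, which met the filter only through the control libraries.

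The list of heat shock and chaperone genes held 7 of the 57 lower genes, and its inducible members differed most among these. Heat shock proteins of the Hsp70 family bind unfolded stretches of other proteins, and their genes are strongly induced by heat in flies. Hsp70Ab stood at 281, 265 and 292 rescaled TPM in the control, at 121, 93.7 and 80.1 after HP1a RNAi and at 106, 118 and 114 after Su(var)3-9 RNAi. Every knockdown library was thus well under every control library, and the control mean of 279 ± 13.5 (SD, n = 3) was 2.65-fold the knockdown mean of 105 ± 15.9 (SD, n = 6). The difference was -1.41 (SE 0.13, limma adjusted p = 0.000393). Hsp70Bb stood at 261, 256 and 156 in the control, 76.4, 72.5 and 74.4 after HP1a RNAi and 69.5, 64.5 and 77.7 after Su(var)3-9 RNAi. The knockdown libraries of this copy lay in a narrow band, 3.09-fold below the control mean, with a difference of -1.58 (SE 0.15, adjusted p = 0.000542).

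The Hsp70 copies are nearly identical in sequence, and reads may be divided among them in ways that differ between libraries. Their levels are for that reason also given as a sum. The 6 copies summed to 690.01, 687 and 708 in the control and to between 234 and 286 in the 6 knockdown libraries. The control mean of the sum was 695 ± 11.2 (SD, n = 3) and the knockdown mean 253 ± 21.0 (SD, n = 6), a 2.74-fold lower level. A further copy, Hsp70Ba, named after its values were seen, was lower by -1.69 (SE 0.28, adjusted p = 0.0184), a call lost without control 1, control 2 or Su(var)3-9 RNAi 2 (adjusted p = 0.0507 to 0.121). The other copies did not pass, and only Hsp70Aa had all 6 knockdown libraries below the control. Their differences were -1.99 in Hsp70Aa (adjusted p = 0.164), -0.60 in Hsp70Bbb (adjusted p = 0.229) and -1.84 in Hsp70Bc (adjusted p = 0.272).

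Hsp68, an inducible member of the same family, was lower with little spread among its libraries. It stood at 163, 166 and 175 in the control, 75.2, 65.4 and 70.3 after HP1a RNAi and 83.6, 72.6 and 62.8 after Su(var)3-9 RNAi. The control mean was 2.35-fold the knockdown mean (168 ± 5.78 against 71.7 ± 7.43), with a difference of -1.22 (SE 0.10, limma adjusted p = 0.000198). The small heat shock proteins, which keep unfolded proteins from clumping, were lower as well. Hsp26 stood at 203, 220.5 and 179 in the control, 87.9, 73.2 and 70.1 after HP1a RNAi and 106, 98.4 and 105 after Su(var)3-9 RNAi, 2.23-fold lower in the knockdown mean (-1.16, SE 0.15, adjusted p = 0.00566). Hsp27, named after its values were seen, stood at 106, 95.8 and 118, then 49.9, 52.4 and 50.3, then 58.9, 44.6 and 67.0, with a difference of -0.98 (SE 0.13, adjusted p = 0.00566). Hsp70Ab, Hsp70Bb, Hsp68, Hsp26 and Hsp27 passed without any 1 of the 9 libraries and in every alternative processing tried.

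Constitutive chaperones moved less. Hsc70-4, the main Hsp70-type chaperone of the unstressed cytosol and named after its values were seen, stood at 3746, 3789 and 4799.6 in the control, 2911, 2739.6 and 2941 after HP1a RNAi and 2772, 2818 and 2423 after Su(var)3-9 RNAi. Control 3 stood above the rest, and in that library the transcript CG4264-RC was at 1122, against at most 16.8 in any other. The difference was -0.56 (SE 0.10, limma adjusted p = 0.0311) and was lost without control 2, control 3, any of the HP1a RNAi libraries or Su(var)3-9 RNAi 2 (adjusted p = 0.0569 to 0.0888). Hsc70-3, the BiP chaperone of the endoplasmic reticulum, stood at 683, 807 and 977 in the control, 545, 518 and 458 after HP1a RNAi and 490.3, 513 and 604 after Su(var)3-9 RNAi. Its transcript CG4147-RA overlapped between the groups, at 247 to 283 in the control and 208 to 279 in the knockdowns. The transcript CG4147-RC stood at 243, 387 and 681 in the control and 150 to 303 in the knockdowns. The difference of the Hsc70-3 gene was -0.65 (SE 0.12, adjusted p = 0.0311). That call was lost without control 2, control 3, any HP1a RNAi library, Su(var)3-9 RNAi 1 or Su(var)3-9 RNAi 2 (adjusted p = 0.0503 to 0.133). Hsp83, the fly Hsp90, differed by -0.12 (SE 0.10, adjusted p = 0.595), and Hsf, the transcription factor that induces heat shock genes, by 0.02 (adjusted p = 0.941).

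**Figure D2:**
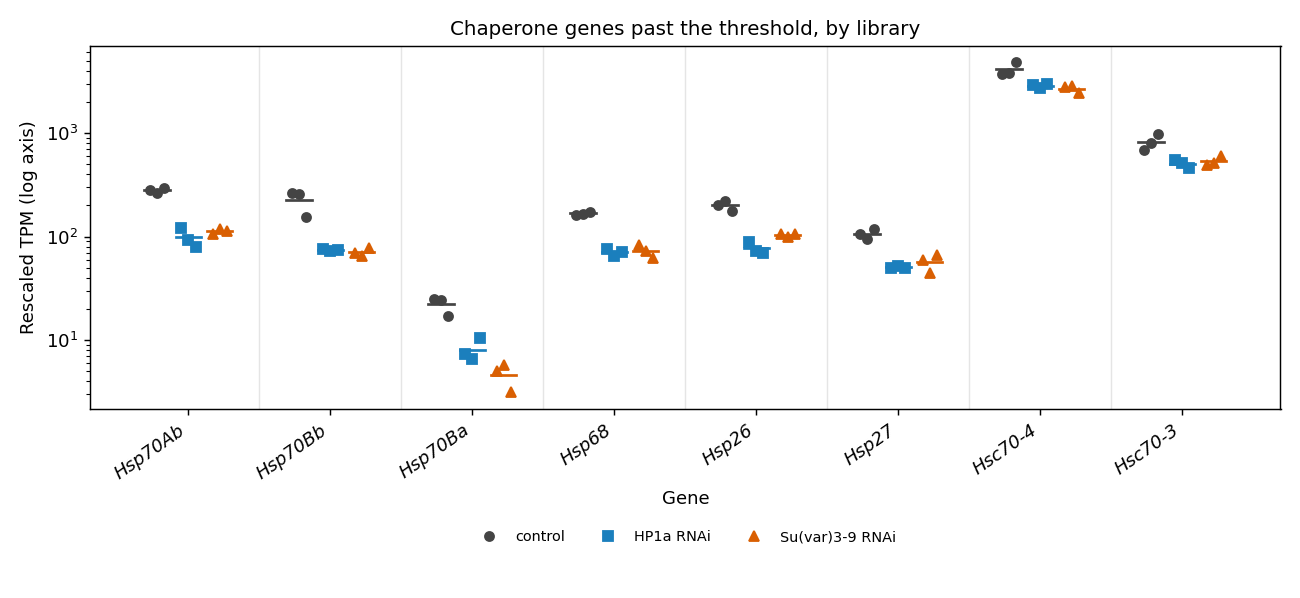
Rescaled TPM on a log axis of 8 chaperone genes in each of the 9 libraries, with points for single libraries and lines for group means. For Hsp70Ab, Hsp70Bb, Hsp68, Hsp26 and Hsp27 both knockdown groups sit well under the control, from 1.98-fold to 3.09-fold lower in the mean of the 6 libraries, and the gap is smaller in Hsc70-4 and Hsc70-3.

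Over the whole list of heat shock and chaperone genes, 35 were tested, 7 were lower and none was higher in limma. Of all tested genes 0.706% were lower and 0.173% higher. Of the 35 genes, 32 had a difference below 0 and 13 had all 6 knockdown libraries below all controls, with a list median of -0.22 against -0.02 over all tested genes. At an unadjusted p under 0.05, 15 of the list were lower and 1 was higher. Over all 8072 tested genes 4257 had a difference below 0, and 5.23% had all 6 knockdown libraries below all controls. At an unadjusted p under 0.05, 745 of all tested genes were lower and 548 higher. Leaving out single libraries gave between 5 and 8 genes of the heat shock and chaperone list that passed. In a list of 23 tested genes for endoplasmic reticulum chaperones and the unfolded protein response, only Hsc70-3 passed, and the median was -0.07.

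Among RNA-binding proteins, pAbp and Unr were lower in the knockdowns. pAbp, the poly(A)-binding protein that coats messenger RNA tails, stood at 1752, 1741 and 1720.3 rescaled TPM in the control, 653, 969 and 539.9 after HP1a RNAi and 427, 531 and 792 after Su(var)3-9 RNAi. The controls were nearly equal while the knockdown libraries spread widely below them, and the control mean of 1738 ± 16.2 (SD, n = 3) was 2.67-fold the knockdown mean of 652 ± 199 (SD, n = 6). The difference was -1.47 (SE 0.21, limma adjusted p = 0.00938), and without control 2 it did not pass (adjusted p = 0.0592). The 4 pAbp transcripts with a control mean of at least 100 each had all 6 knockdown libraries below the control.

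Unr binds RNA and in flies takes part in keeping dosage compensation off in females. It stood at 28.3, 45.5 and 15.8 in the control, 9.35, 9.12 and 3.60 after HP1a RNAi and 2.99, 4.27 and 6.95 after Su(var)3-9 RNAi. The controls themselves varied, yet the lowest of them lay above the highest knockdown library. The difference was -2.11 (SE 0.38, limma adjusted p = 0.0311), and the call was lost without control 1, control 2, HP1a RNAi 3 or Su(var)3-9 RNAi 2 (adjusted p = 0.072 to 0.151). These were the only 2 of 38 tested genes for translation initiation and poly(A) binding that passed, against 0.88% of all tested genes. The list median was -0.13. The count of 2 became 0 without control 2, 1 without control 1, HP1a RNAi 3 or Su(var)3-9 RNAi 2, and 3 without HP1a RNAi 2 or Su(var)3-9 RNAi 1.

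Some genes of enzymes that act on foreign or reactive compounds were lower too, grouped here after their values were seen. Cyp9c1 encodes a cytochrome P450, an enzyme family that oxidizes foreign and internal compounds. It stood at 40.1, 39.0 and 50.5 in the control, 12.4, 12.2 and 11.4 after HP1a RNAi and 20.8, 18.7 and 11.5 after Su(var)3-9 RNAi. All 6 knockdown libraries were low, 2.98-fold below the control in the mean, with a difference of -1.54 (SE 0.21, limma adjusted p = 0.006) that passed without any 1 library. In the list of 38 tested P450 genes, drawn up after the values were seen, Cyp9c1 was the only gene that passed, 30 had a difference below 0, 12 had all 6 knockdown libraries below the control, and the median was -0.25. Over all 8072 tested genes 0.88% passed, 4257 had a difference below 0, and 5.23% had all 6 knockdown libraries below the control. The number of P450 genes that passed was 3 without Su(var)3-9 RNAi 3 and 1 without any of the others.

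Glutathione S-transferases join glutathione to reactive compounds, and 4 of 31 tested genes of this family were lower, against 0.706% of all tested genes. GstE6 stood at 1057, 1093 and 1023 in the control, 624.9, 692 and 636 after HP1a RNAi and 828.9, 651 and 759.6 after Su(var)3-9 RNAi, a difference of -0.60 (SE 0.10, limma adjusted p = 0.0182). GstD1 stood at 479, 465 and 526 in the control, 277, 289 and 272 after HP1a RNAi and 367, 352 and 315 after Su(var)3-9 RNAi, a difference of -0.66 (SE 0.11, adjusted p = 0.0184). In both genes the knockdown libraries kept clear of the controls, with the HP1a RNAi mean under the Su(var)3-9 RNAi mean. GstO3 (-0.60, adjusted p = 0.0208) and GstE3 (-0.37, adjusted p = 0.0387) were the others. The calls were lost for GstE6 without control 2, HP1a RNAi 3 or Su(var)3-9 RNAi 2 (adjusted p = 0.0504 to 0.11) and for GstD1 without control 2, control 3 or HP1a RNAi 2 (0.0505 to 0.0745). GstO3 was lost without control 2, control 3, HP1a RNAi 3 or Su(var)3-9 RNAi 2 (0.0507 to 0.103), and GstE3 without any control, any HP1a RNAi library or Su(var)3-9 RNAi 2 (0.0601 to 0.142). Over the family 28 genes had a difference below 0, 11 were lower at an unadjusted p under 0.05 and none was higher, and the median was -0.37. Of all 8072 tested genes 4257 had a difference below 0, and 745 were lower and 548 higher at an unadjusted p under 0.05. With single libraries left out the count of 4 glutathione S-transferase genes became 0 without control 2, 1 without control 3, HP1a RNAi 3 or Su(var)3-9 RNAi 2, and 2 without HP1a RNAi 2, and it reached 5 at most. The glutathione S-transferase list and the members named from it were chosen after their values were seen.

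Several further enzymes, also named after their values were seen, held lower levels. Drat, whose protein has an alcohol dehydrogenase-like domain, stood at 221, 224 and 246 in the control, 100.3, 109.6 and 108 after HP1a RNAi and 122, 104 and 119 after Su(var)3-9 RNAi. The knockdown libraries kept to a narrow band, 2.08-fold lower at -1.05 (SE 0.09, limma adjusted p = 0.000198), and it passed in every alternative tried. The aldo-keto reductase gene Akr1B stood at 320.3, 343 and 407 in the control and between 220.4 and 248 in the knockdowns (-0.61, SE 0.09, adjusted p = 0.00938). Ubc84D, which encodes a ubiquitin-conjugating enzyme, stood at 24.4, 36.3 and 28.2 in the control and between 9.34 and 13.9 in the knockdowns (-1.25, SE 0.17, adjusted p = 0.006). Both passed without any 1 library. MsrA, which repairs oxidized methionine, stood at 233, 238 and 293 in the control, 127, 104 and 135 after HP1a RNAi and 161, 148 and 177 after Su(var)3-9 RNAi. Its difference of -0.85 (SE 0.15, adjusted p = 0.03) was lost without control 2, control 3, HP1a RNAi 1, HP1a RNAi 3 or Su(var)3-9 RNAi 2 (adjusted p = 0.0686 to 0.11).

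In central metabolism the lower genes included Gs2 and Men, the 2 of 38 tested genes that passed in the metabolism and lipid list, whose median was -0.13. Of all tested genes 0.88% passed. Gs2, a glutamine synthetase, stood at 7.49, 10.3 and 8.39 in the control, 1.64, 1.96 and 2.70 after HP1a RNAi and 3.51, 2.28 and 3.79 after Su(var)3-9 RNAi. Men, the malic enzyme that makes NADPH, stood at 319, 352 and 369.6 in the control, 233, 229 and 221 after HP1a RNAi and 270.4, 251 and 273 after Su(var)3-9 RNAi. Both genes had separate groups, with differences of -1.44 for Gs2 (SE 0.24, limma adjusted p = 0.0208) and -0.49 for Men (SE 0.09, adjusted p = 0.0326). Gs2 was lost without control 2, control 3, HP1a RNAi 2, HP1a RNAi 3 or Su(var)3-9 RNAi 2 (adjusted p = 0.051 to 0.13), and Men without control 2, control 3, any HP1a RNAi library or Su(var)3-9 RNAi 2 (0.0722 to 0.148). Glycogen phosphorylase, Glyp, named after its values were seen, stood at 28.3, 35.6 and 33.5 in the control and between 16.3 and 20.9 in the knockdowns (-0.82, SE 0.12, adjusted p = 0.0113, lost without control 2 or control 3 at 0.0561 to 0.0804). None of the 19 tested glycolysis genes passed in limma, and 3 were lower and none higher at an unadjusted p under 0.05 (median -0.02, 1 passed without Su(var)3-9 RNAi 3). Over all 8072 tested genes 745 were lower and 548 higher at that cutoff.

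Single members passed in the hemocyte and immune lists. Fer1HCH, the ferritin heavy chain, which stores iron, stood at 625.1, 691 and 699 in the control, 477, 439 and 442 after HP1a RNAi and 551, 504 and 529.5 after Su(var)3-9 RNAi (-0.46, SE 0.09, limma adjusted p = 0.0438). vir-1, a gene known for its induction by viruses, stood at 105, 117 and 157 in the control, 82.0, 77.0 and 83.6 after HP1a RNAi and 74.0, 68.0 and 76.4 after Su(var)3-9 RNAi (-0.69, SE 0.12, adjusted p = 0.03). Fer1HCH was the only 1 of 12 tested hemocyte markers and vir-1 the only 1 of 39 tested immune genes that passed. Of all tested genes 0.88% passed. The medians of the hemocyte and immune lists were -0.11 and 0.03. In bulk RNA, fewer cells of a kind and less RNA per cell cannot be told apart. The call of Fer1HCH was lost without any control, any HP1a RNAi library or Su(var)3-9 RNAi 2 (adjusted p = 0.0536 to 0.177) and that of vir-1 without control 2, control 3, any HP1a RNAi library or Su(var)3-9 RNAi 2 (0.0543 to 0.102).

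**Figure D3:**
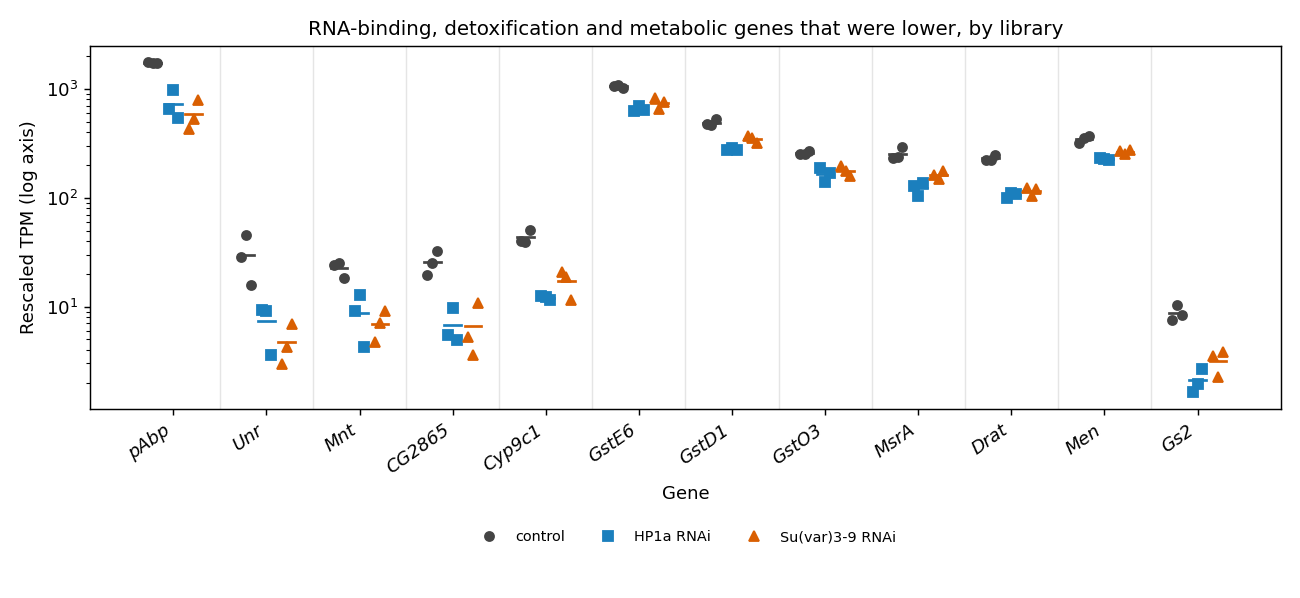
Rescaled TPM on a log axis of 12 genes that were lower in the pooled knockdowns, with points for the 9 libraries and lines for group means. In each of the 12 the highest knockdown point lies under the lowest control point, as with pAbp at 427 to 969 against 1720.3 to 1752.

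In 5 low genes at least 5 of the 6 knockdown libraries were listed at 0, and 4 of them had the largest falls on this scale. CG41138 stood at 9.38, 6.34 and 8.59 in the control and was listed at 0 in all 6 knockdown libraries (limma adjusted p = 0.000198). CG4783 stood at 4.17, 2.85 and 4.16 (adjusted p = 0.00455) and Nost at 2.54, 3.58 and 5.02 (adjusted p = 0.00566) in the control, and both were listed at 0 in all 6 knockdown libraries. CG16713 and rtp showed nearly the same pattern. CG16713 stood at 9.45, 8.64 and 2.97 in the control and was above 0 in only Su(var)3-9 RNAi 2 of the knockdowns, at 2.75 (adjusted p = 0.0384). The values of rtp were 2.41, 5.05 and 1.585 in the control, with 0.516 in Su(var)3-9 RNAi 1 and 0 in the other knockdown libraries (adjusted p = 0.0358). These were the only 5 of the 71 genes with any library at 0, and with lengths of 282 to 509 bases they are short. A listed 0 can be a failed estimate, and no fold is given. All 5 met the filter mean of at least 1 only through the control libraries. Their calls are therefore not independent of that filter, and leaving out single libraries does not change this. CG41138, CG4783 and Nost passed without any 1 library, whereas CG16713 was lost without control 1, control 2, any HP1a RNAi library or Su(var)3-9 RNAi 1 (adjusted p = 0.0627 to 0.176) and rtp without control 1, control 2, any HP1a RNAi library or Su(var)3-9 RNAi 2 (0.0632 to 0.17).

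The 8 largest falls also included CG2865 and CG12560, beside Unr. CG2865 stood at 19.4, 25.4 and 32.7 in the control, 5.49, 9.81 and 4.95 after HP1a RNAi and 5.26, 3.60 and 10.9 after Su(var)3-9 RNAi. CG12560 stood at 17.1, 13.9 and 15.9 in the control, 6.36, 5.20 and 4.05 after HP1a RNAi and 3.09, 4.84 and 0.983 after Su(var)3-9 RNAi. In both genes the groups were separate, 3.87-fold lower for CG2865 (-1.86, SE 0.30, limma adjusted p = 0.0182) and 3.82-fold lower for CG12560 (-1.81, SE 0.35, adjusted p = 0.0414). CG2865 was lost without control 2 or control 3 (adjusted p = 0.0833 to 0.102). CG12560 was lost without any 1 library other than Su(var)3-9 RNAi 3, at adjusted p = 0.0517 to 0.143. Mnt, a partner of the transcription factor Max that was named after its values were seen, stood at 24.1, 25.0 and 18.2 in the control and between 4.23 and 12.8 in the knockdowns (-1.47, SE 0.29, adjusted p = 0.043), and was lost without any control, HP1a RNAi 1, HP1a RNAi 3, Su(var)3-9 RNAi 1 or Su(var)3-9 RNAi 2 (0.0591 to 0.177).

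The 14 higher genes were a mixed set with smaller changes. Gk2, a glycerol kinase, stood at 6.97, 7.17 and 6.538 in the control, 19.8, 16.0 and 12.5 after HP1a RNAi and 14.1, 14.7 and 14.7 after Su(var)3-9 RNAi. All 6 knockdown libraries were above the control, 2.22-fold in the mean, with a difference of 1.04 (SE 0.16, limma adjusted p = 0.0118). Sirup, an assembly factor of succinate dehydrogenase, stood at 129, 125 and 105 in the control, 208, 226 and 181 after HP1a RNAi and 222, 248 and 203 after Su(var)3-9 RNAi, 1.79-fold higher (0.84, SE 0.11, adjusted p = 0.00566). CG17264 stood at 32.2, 33.7 and 32.8 in the control, 52.99, 51.4 and 55.2 after HP1a RNAi and 58.2, 49.98 and 51.6 after Su(var)3-9 RNAi (0.68, SE 0.09, adjusted p = 0.00566). The libraries of each group lay close together in CG17264. CG8478 stood at 69.6, 68.1 and 58.5 in the control and between 94.1 and 105.5 in the knockdowns (0.57, SE 0.08, adjusted p = 0.0105). Sirup, CG17264 and CG8478 were the only 3 higher genes that passed without any 1 library, while Gk2 was lost without control 2 or control 3 (adjusted p = 0.0561 to 0.0569).

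Other higher genes were nearer the threshold. On the log2(rescaled TPM + 1) scale CG18135 had the largest rise, from 13.4, 21.5 and 11.6 in the control to between 26.3 and 40.0 in the knockdowns (1.10, SE 0.20, limma adjusted p = 0.0311). Ada1-1, a subunit of the SAGA histone acetyltransferase complex, stood at 7.75, 7.63 and 15.8 in the control and between 18.0 and 27.0 in the knockdowns (1.08, SE 0.22, adjusted p = 0.0438). In Ada1-1 control 3 stood near the lowest knockdown library. CG12107 (0.70, adjusted p = 0.0423) and CG9775 (0.59, adjusted p = 0.0384) completed the 8 largest rises. CG18135 was lost without control 1, control 3, any HP1a RNAi library or Su(var)3-9 RNAi 2 (adjusted p = 0.0516 to 0.105), and Ada1-1 without any 1 library except control 3 (0.0562 to 0.192). CG12107 was lost without any 1 library except Su(var)3-9 RNAi 3 (0.051 to 0.14), and CG9775 without control 2, control 3, HP1a RNAi 2, HP1a RNAi 3, Su(var)3-9 RNAi 1 or Su(var)3-9 RNAi 2 (0.0593 to 0.158).

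The most abundant of the higher genes was CtsL1, which encodes cathepsin L, a protease of the lysosome. It stood at 1893, 1817 and 1952 in the control, 2757, 2560.1 and 2545 after HP1a RNAi and 2709.5, 2733 and 2586 after Su(var)3-9 RNAi. The groups were tight and well apart, 1.40-fold higher in the knockdown mean (0.49, SE 0.07, limma adjusted p = 0.0102), and the call was lost without control 2 (adjusted p = 0.0745). It was the only 1 of 34 tested autophagy and lysosome genes that passed, against 0.88% of all tested genes, and the list median was 0.05. The remaining 5 higher genes, named after their values were seen, were Dph1, which acts in diphthamide synthesis (0.56, adjusted p = 0.0337), MagR, an iron-sulfur cluster assembly protein (0.54, adjusted p = 0.0311), the sugar transporter slv (0.53, adjusted p = 0.0437), the kinetochore protein Kmn1 (0.49, adjusted p = 0.0453) and the Rab GTPase RabX6 (0.44, adjusted p = 0.048). Each of these lost its call without control 1, control 2, any HP1a RNAi library or Su(var)3-9 RNAi 2, all but Dph1 without control 3, all but MagR without Su(var)3-9 RNAi 1, and RabX6 also without Su(var)3-9 RNAi 3 (adjusted p = 0.0503 to 0.177). The gene slv overlaps sut1, a sugar transporter gene on the opposite strand that was lower (-0.56, adjusted p = 0.0384, lost without any control, any HP1a RNAi library or Su(var)3-9 RNAi 2 at 0.0607 to 0.176), and their reads cannot be told apart where strand was not used.

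**Figure D4:**
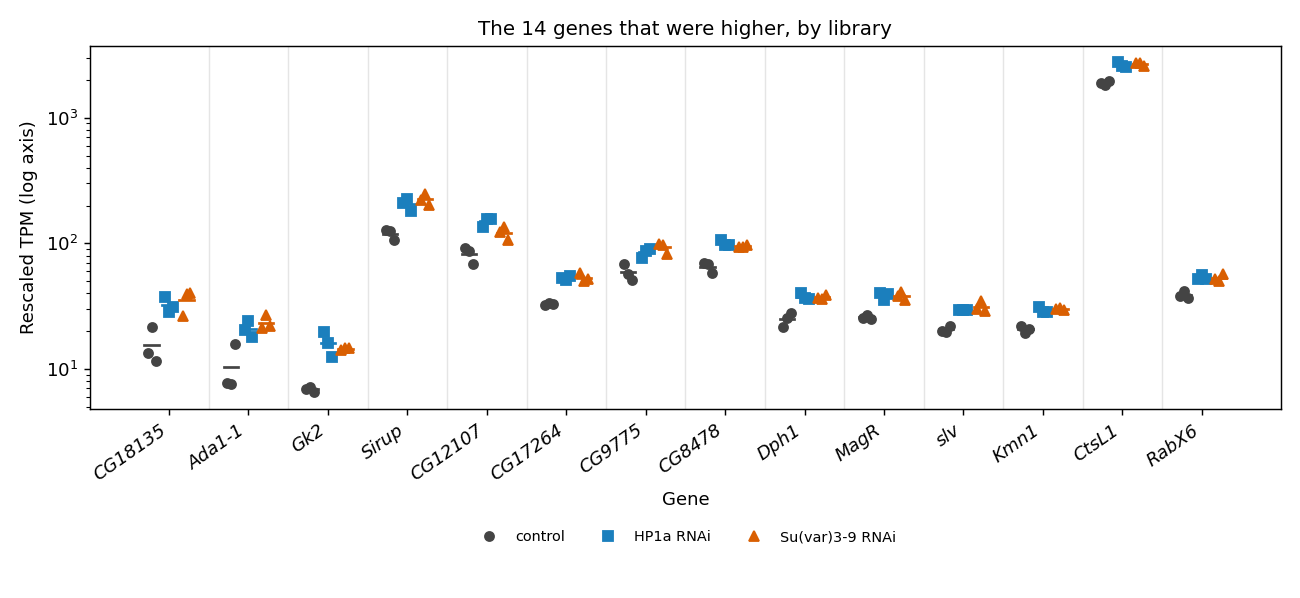
Rescaled TPM on a log axis of the 14 genes that were higher in the pooled knockdowns, with points for the 9 libraries and lines for group means. In every panel the lowest knockdown point lies above the highest control point, from a 1.37-fold higher mean in RabX6 to 2.22-fold in Gk2.

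Genes located in pericentromeric heterochromatin, the class the study set out to examine, showed no common direction. Of 182 tested heterochromatic genes 1 was lower and none was higher in limma, against 0.706% and 0.173% of all tested genes. In this list 97 had a difference below 0 and 85 above, and the median was -0.03 against -0.02 for all tested genes. At an unadjusted p under 0.05, 12 were lower and 10 higher, against 745 and 548 of all 8072 tested genes. All knockdown libraries were below the control in 6 of the 182 and above it in 8, against 5.23% and 3.63% of all tested genes. The heterochromatic gene that passed was CG14636, at 4.76, 6.06 and 6.60 in the control, 2.41, 2.16 and 2.16 after HP1a RNAi and 1.96, 2.47 and 1.76 after Su(var)3-9 RNAi. Its groups were separate at a low level (-1.11, SE 0.20, adjusted p = 0.0324), and the call was lost without any 1 library except control 1 or Su(var)3-9 RNAi 3 (adjusted p = 0.0503 to 0.143). The count for the list ran from 0 to 4 with single libraries left out, with 4 without control 1, 2 without Su(var)3-9 RNAi 3 and 0 without any of the others. None of lt, rl, Nipped-A and Nipped-B, classic genes of heterochromatin, passed in limma, with differences from -1.09 to 0.17 (smallest adjusted p = 0.212, 2 at an unadjusted p under 0.05).

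The preset chromatin genes and the lists of heterochromatin factors and of genes on the fourth chromosome held no gene that passed. Of all tested genes 0.88% passed. At an unadjusted p under 0.05, 745 of all 8072 tested genes were lower and 548 higher. None of 37 tested heterochromatin factors passed in limma, 3 were lower and 3 higher at an unadjusted p under 0.05, and the median was 0.02. G9a and egg, the other H3K9 methyltransferases, and the HP1 relatives HP1b and HP1c differed by -0.03 to 0.14 (smallest adjusted p = 0.587, 0 of 4 at an unadjusted p under 0.05). Trl, rad50, HmgZ, Nup75 and Su(var)2-10 differed by 0.18 to 0.37, all above 0, and none passed in limma (smallest adjusted p = 0.184, 4 of 5 at an unadjusted p under 0.05). LamC, the A-type lamin of the nuclear envelope, stood at 15.1, 21.5 and 27.5 in the control, 11.4, 10.3 and 9.89 after HP1a RNAi and 9.38, 10.1 and 13.8 after Su(var)3-9 RNAi. All 6 knockdown libraries were below the control, with a difference of -0.89 (SE 0.19) that fell short of the threshold (adjusted p = 0.055, and 0.0262 to 0.194 with single libraries left out). Of 64 tested genes of the fourth chromosome, which is rich in HP1a, none passed in limma, while 9 were lower and 2 higher at an unadjusted p under 0.05 (median -0.16, 1 passed without Su(var)3-9 RNAi 3).

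Genes of the cell cycle and of DNA repair had more differences above 0 than below, but none passed, against 0.88% of all tested genes. Over all 8072 tested genes 3815 had a difference above 0 and 4257 below. At an unadjusted p under 0.05, 745 of all tested genes were lower and 548 higher. Of 52 tested cyclin and mitosis genes 41 had a difference above 0, 10 were higher and 2 lower at an unadjusted p under 0.05, and none passed in limma (median 0.12). Among them cid, the centromeric histone, named after its values were seen, stood at 19.5, 17.3 and 10.5 in the control, 27.4, 26.6 and 26.4 after HP1a RNAi and 21.9, 28.5 and 28.6 after Su(var)3-9 RNAi. The knockdown libraries of cid all lay above the control, with a difference of 0.75 (SE 0.18, adjusted p = 0.0764). Of 37 tested DNA repair genes 30 had a difference above 0, 2 were higher and none lower at an unadjusted p under 0.05, and none passed (median 0.08). Both medians are smaller in size than the shift of all genes to -0.23 with TPM as deposited. The same holds for every other list, heat shock (-0.22) included, except glutathione S-transferases (-0.37), P450 genes (-0.25), matrix genes (-0.28) and markers of other cell types (-0.58). The scaling multiplies every gene of a library by the same factor. That shift therefore moves a list and all genes together, and it does not measure how far a list lies from the other genes.

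The other lists held no gene that passed in limma, against 0.88% of all tested genes. With the number at an unadjusted p under 0.05 given as lower and higher, these were histones (6 tested, median -0.02, 0 and 1), replication licensing (32, -0.11, 2 and 2), small RNA silencing (29, -0.04, 4 and 2), lamina and nucleoporins (35, 0.07, 3 and 1) and Polycomb and Trithorax (45, -0.06, 1 and 1). Insulator proteins (16, 0.08, 0 and 2), HMG and AT-hook proteins (7, -0.07, 1 and 1) and matrix genes (18, -0.28, 4 and 1) were likewise without a call. The large housekeeping lists lay close to the median of all genes. They were ribosomal proteins (90 tested, median -0.03, 3 and 3), oxidative phosphorylation (75, 0.05, 2 and 7) and the proteasome (35, 0.00, 0 and 3). Of these lists, with single libraries left out, 1 ribosomal protein gene passed without Su(var)3-9 RNAi 3 and 1 gene of the lamina and nucleoporin list passed without control 1 or Su(var)3-9 RNAi 3. The 5 tested markers of other cell types had a median of -0.58 with 2 lower and 1 higher at an unadjusted p under 0.05. Over all 8072 tested genes 745 were lower and 548 higher at that cutoff.

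**Figure D5:**
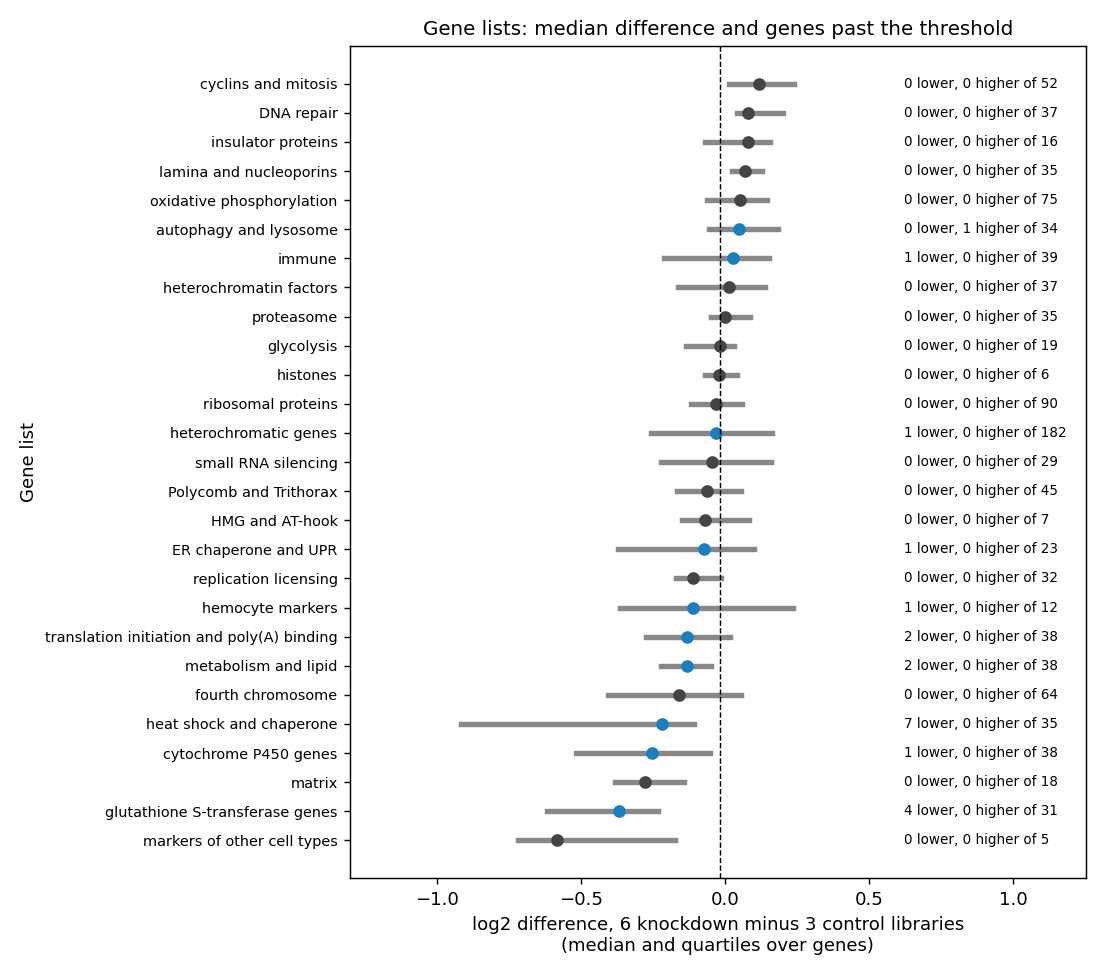
Median (point) and quartiles (bar) of the log2 difference between the 6 knockdown and the 3 control libraries for each gene list, with a dashed line at the median of all tested genes, -0.02. Lists with at least 1 gene that passed are blue. Among these the glutathione S-transferase, P450 and heat shock lists lie furthest left, with medians of -0.37, -0.25 and -0.22. The glutathione S-transferase and P450 lists were drawn up after the values were seen. Without a gene that passed, matrix genes (-0.28) and the 5 markers of other cell types (-0.58) also lie to the left.

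A direct comparison of the knockdowns found few genes that differed. Of the 8072 tested genes 10 (0.124%) passed in limma between the knockdowns, 5 in each direction, and 442 had an unadjusted p under 0.05. The targets were among them, with the HP1a gene higher by 2.60 in the HP1a RNAi libraries (adjusted p = 4.79e-06) and Su(var)3-9 lower by -3.61 (adjusted p = 1.24e-06). The low and short gene l(3)neo43 stood at 9.71, 25.3 and 16.5 in the control and 9.63, 15.4 and 18.1 after HP1a RNAi and was listed at 0 in all 3 Su(var)3-9 RNAi libraries (adjusted p = 0.000953). ppk29, a sodium channel subunit of the DEG/ENaC family, stood at 13.0, 15.5 and 11.9 in the control, 17.2, 23.6 and 19.0 after HP1a RNAi and 4.02, 2.66 and 4.92 after Su(var)3-9 RNAi (2.12, SE 0.22, adjusted p = 0.0043). It lay on opposite sides of the control in the knockdowns.

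Lower after HP1a RNAi than after Su(var)3-9 RNAi were fat-spondin, Spn27A and pic. The levels of fat-spondin were 25.1, 25.7 and 27.8 in the control, 18.5, 16.1 and 15.4 after HP1a RNAi and 32.6, 34.4 and 44.0 after Su(var)3-9 RNAi (-1.10, SE 0.15, limma adjusted p = 0.0281). Spn27A, a serpin that restrains the Toll pathway, stood at 67.4, 69.5 and 83.5 in the control, 35.2, 27.5 and 32.6 after HP1a RNAi and 58.8, 58.3 and 59.8 after Su(var)3-9 RNAi (-0.88, SE 0.13, adjusted p = 0.0381). It was thus lower in all 6 knockdown libraries than in the control, but unequally. The DNA damage-binding protein gene pic stood at 147, 159.9 and 157 in the control, 107, 102 and 98.2 after HP1a RNAi and 148, 162 and 155 after Su(var)3-9 RNAi (-0.59, SE 0.09, adjusted p = 0.0381). Only the HP1a RNAi libraries stood apart for pic. The count of 10 ran from 3 to 11 with single libraries left out, and was 3 without HP1a RNAi 2, 4 without HP1a RNAi 3, 5 without control 1, HP1a RNAi 1, Su(var)3-9 RNAi 1 or Su(var)3-9 RNAi 3, and 6 without control 2 or Su(var)3-9 RNAi 2.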

How the data were processed

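Total RNA of 9 S2 libraries was sequenced by the authors, who trimmed reads with Cutadapt, aligned them to dm3 with STAR and quantified genes with RSEM. They deposited TPM per gene and per transcript. Groups were taken from the sample labels. Deposited tables with posterior probabilities and fold changes of the authors' own comparisons were not used. Depth is unknown from TPM.

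CG genes (14088 of 15168) were rescaled to 1000000 per library, genes with a mean of at least 1 were kept (8072), and log2(rescaled TPM + 1) was fitted with limma 3.58.1 in R 4.3.3 (lmFit, eBayes with trend, two-sided), 6 libraries against 3, without covariates. Genes passed at a p under 0.05 after Benjamini-Hochberg adjustment over all tested genes. A fit with 3 groups over the 9 libraries gave each knockdown and their difference. The CG share was tested with SciPy 1.17.1. The scripts were tested on simulated data with 200 changed genes, in 10 runs. There the pooled fit recovered a median of 32% of changes of 0.5 log2 units, 69.5% of changes of 1 and 93% of changes of 2. Other tools were Python 3.11.15, numpy 2.4.6, pandas 2.3.3 and matplotlib 3.10.9.

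Names came from a RefSeq table of a later assembly, by locus tag (12957), older locus tag (569) or synonym (87), and 475 identifiers kept their own name. No coordinates or sequences are given, since the builds differ. Heterochromatic genes were the list of the study.

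Named genes were the targets, the 8 largest falls and rises that passed without overlap, up to 3 members per list by adjusted p, a preset group (LamC, Trl, rad50, HmgZ, Nup75, Su(var)2-10, lt, rl, Nipped-A, Nipped-B, pAbp, G9a, egg, HP1b, HP1c, Hsp70Ab, Hsp83, Hsp26) and the 3 smallest adjusted p per direction between the knockdowns. Hsf, the remaining Hsp70 copies and other names given as such were added after their values were seen. The samples compared, the lists and the rules were chosen with earlier results of these data known, so none is independent evidence.

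Alternatives included TPM as deposited, 0.1 as the pseudocount, the filter dropped or raised to 5, median-ratio size factors, quantile normalization, a replicate block, eBayes without trend or robust, array weights, the 3-group fit, fits on the 6 libraries compared, rescaling without the targets, and leaving out each library. Same-numbered libraries did not deviate together (correlations -0.208 to 0.0908 over 9 pairs), so the numbers were not treated as pairs.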

Additional observations from a re-analysis of the deposited data

Results flagged for a closer look

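In 6 of the 71 genes that passed, 1 of the 6 knockdown libraries stood apart from the other 5 by Dixon's criterion, which chance meets in about 1 in 20 groups. These were rtp at 0.516 in Su(var)3-9 RNAi 1 (the others at 0), CG16713 at 2.75 in Su(var)3-9 RNAi 2 (the others at 0), the gene named CR18228 at 31.7 in HP1a RNAi 1 (the others 46.1 to 50.3), CG8478 at 105.5 in HP1a RNAi 1 (94.1 to 97.6), slv at 34.7 in Su(var)3-9 RNAi 2 (29.0 to 30.2) and Oat, an ornithine aminotransferase gene, at 165 in Su(var)3-9 RNAi 1 (129 to 141).

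The effects of the knockdowns differed in 10 genes by the limma test of the difference itself. The log2 difference of HP1a RNAi minus Su(var)3-9 RNAi was 2.60 for the HP1a gene, 3.90 for l(3)neo43, 2.12 for ppk29, 2.31 for CG13563 and 1.85 for stj, a calcium channel subunit gene. It was -3.61 for Su(var)3-9, -1.10 for fat-spondin, -0.879 for Spn27A, -0.593 for pic and -0.535 for Gel, the gelsolin gene. The value of l(3)neo43 depends on the pseudocount, because the gene was listed at 0 in the Su(var)3-9 RNAi libraries.

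Outside the CG genes, 5 of 216 genes whose mean reached 1 TPM were higher in all 6 knockdown libraries than in the 3 controls, in TPM as deposited, and 6 were lower in all 6. These are 2.3% and 2.8% of the 216. Of the tested CG genes 3.63% were higher and 5.23% lower in all 6, but in rescaled TPM, which is another scale.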

How the results depend on the processing

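No gene of the 71 changed direction in any of the 21 alternatives run per gene, and 15 passed in all of them in which they were tested: Hsp26, Hsp27, Hsp68, Hsp70Ab, Hsp70Bb, Cyp9c1, Drat, Akr1B, Ubc84D, CG5191, CG15547, CG16758, CG41138, CG4783 and Nost. The last 3 were too low for the filter at a mean of 5 and met the main filter only through the control libraries. The count of 71 became 382 with TPM as deposited, 26 with the replicate block, 46 with eBayes without trend and 139 with array weights, and ran from 23 to 116 with single libraries left out. It was 67 to 83 under the other alternatives. The replicate block retained 25 of the 71, 4 of them higher (CG17264, CG8478, Gk2 and Sirup). The count of 10 between the knockdowns became 6 with TPM as deposited, 5 with the replicate block, 6 with eBayes without trend, 47 with array weights and 3 in a fit to the 6 knockdown libraries alone, and ran from 3 to 11 with single libraries left out. The causes were not tested. The difference in the CG share of TPM, -2.76 percentage points, was -6.09 (p = 0.214, exact permutation test) without the 10 largest other genes and from -4.22 to -1.98 with single libraries left out. Of the 71 calls, 53 were lost without at least 1 library. As depth is unknown, the precision of low genes rests on the spread of the libraries alone.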
